A study of Mus musculus with 2 samples.

Results

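The nuclear-encoded genes of the respiratory chain and of ATP synthase were followed across 5 classes of cells from mouse heart, in 1 library from db/db mice given salt and 1 library from db/+ mice. The members were all gene symbols that begin with Ndufa, Ndufb, Ndufc, Ndufs, Ndufv, Uqcr, Cox4 to Cox8 or Atp5, with the succinate dehydrogenase genes Sdha, Sdhb, Sdhc and Sdhd. Of 31053 listed genes 91 met this rule. They comprised 36 genes of complex I, 8 complex I assembly factors (symbols that begin with Ndufaf), 4 of complex II, 8 of complex III, 20 of complex IV and 15 of ATP synthase. Ndufa4 and Ndufa4l2 were counted with complex IV, where the Ndufa4 protein is now placed. Atp5o, the peripheral stalk subunit OSCP, was left out because its symbol is listed more than once, and Cyc1, which encodes cytochrome c1 of complex III, does not match the rule.

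The db/db and salt library came from hearts of male db/db mice given 1% salt, and the db/+ library from hearts of male db/+ mice, for which no treatment is named. The db allele is a mutation of the leptin receptor gene Lepr; db/db mice carry it on both copies and become obese and diabetic, and db/+ mice keep a working copy. The series title names the db/db mice on salt an HFpEF model, for heart failure in which the ejection fraction is preserved. The design text gives 4 male hearts per genotype. The sources used here state neither their age and strain background nor whether they were pooled. In both libraries cells from collagenase-digested hearts had been filtered against cardiomyocytes and depleted of CD45-positive leukocytes, and 10x Genomics 3′ libraries were made (kit v3.1), which count RNA molecules by unique molecular identifiers (UMIs). With 1 library per group no test between groups was possible, the spread between animals is unknown, and genotype and salt cannot be told apart. All intervals below are 95% intervals of counting error only.

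Complexes I and II feed electrons from NADH and succinate to ubiquinone, complex III passes them on to cytochrome c, and complex IV (cytochrome c oxidase) hands them to oxygen; complexes I, III and IV pump protons, and ATP synthase uses the gradient to make ATP. A few core subunits are encoded in the mitochondrial genome and all others in the nucleus. Several nuclear subunits of complex IV exist as isoforms tied to tissues: Cox6a2, Cox7a1 and Cox8b are the heart and skeletal muscle forms, Cox6a1, Cox7a2 and Cox8a the broadly expressed ones, Cox4i2 is known from lung, and Ndufa4l2 from pericytes and hypoxic cells. The heart is among the tissues richest in mitochondria, mostly because of its cardiomyocytes.

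The muscle isoforms and their broadly expressed partners differ in the sequence around their start sites, which is shown here for the pairs Cox7a1 and Cox7a2, and Cox8b and Cox8a, with Atp5k, the member that differed most between the libraries in endothelial and fibroblast barcodes. The windows are from RefSeq on GRCm38.p6 and run 5′ to 3′ on the gene's strand, from 250 bases before to 50 after the start of transcription. Cox7a1 is at chr7:30183921-30184220 (+), Cox7a2 at chr9:79759804-79760103 (−), Cox8b at chr7:140900397-140900696 (−), Cox8a at chr19:7217567-7217866 (−) and Atp5k at chr5:108434350-108434649 (−). Capitals mark matches, on either strand, to 5 motifs: NRF1 (GCGCNTGCG), the ETS family (CCGGAAG), YY1 (AAGATGGC), the ERR family (AAGGTCA) and the TATA box (TATAAA).
Cox7a1: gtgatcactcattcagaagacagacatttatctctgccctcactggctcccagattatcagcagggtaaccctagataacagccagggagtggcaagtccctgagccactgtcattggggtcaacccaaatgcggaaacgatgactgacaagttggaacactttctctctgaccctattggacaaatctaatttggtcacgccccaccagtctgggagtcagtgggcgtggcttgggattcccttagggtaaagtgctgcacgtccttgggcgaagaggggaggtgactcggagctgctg
Cox7a2: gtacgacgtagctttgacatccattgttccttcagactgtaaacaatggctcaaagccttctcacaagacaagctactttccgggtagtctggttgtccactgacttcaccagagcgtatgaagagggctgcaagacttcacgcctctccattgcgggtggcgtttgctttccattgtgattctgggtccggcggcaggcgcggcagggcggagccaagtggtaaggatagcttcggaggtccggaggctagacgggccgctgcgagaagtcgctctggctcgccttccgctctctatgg
Cox8b: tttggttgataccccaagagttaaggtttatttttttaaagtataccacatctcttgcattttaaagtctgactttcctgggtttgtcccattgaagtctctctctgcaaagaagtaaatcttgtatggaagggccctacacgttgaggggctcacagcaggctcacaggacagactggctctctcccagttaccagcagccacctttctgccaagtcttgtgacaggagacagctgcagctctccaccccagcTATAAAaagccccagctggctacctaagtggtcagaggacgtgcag
Cox8a: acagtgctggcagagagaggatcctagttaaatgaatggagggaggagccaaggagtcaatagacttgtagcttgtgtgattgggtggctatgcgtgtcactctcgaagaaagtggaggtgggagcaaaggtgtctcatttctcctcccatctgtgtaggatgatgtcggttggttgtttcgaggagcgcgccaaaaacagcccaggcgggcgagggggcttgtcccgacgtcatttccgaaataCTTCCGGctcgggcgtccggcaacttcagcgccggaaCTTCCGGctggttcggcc
Atp5k: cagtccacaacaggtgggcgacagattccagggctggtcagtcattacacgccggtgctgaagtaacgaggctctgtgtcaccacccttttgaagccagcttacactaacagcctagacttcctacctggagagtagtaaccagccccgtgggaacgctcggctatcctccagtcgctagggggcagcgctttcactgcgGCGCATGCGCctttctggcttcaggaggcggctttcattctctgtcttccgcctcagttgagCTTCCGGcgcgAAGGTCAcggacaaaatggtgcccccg
The Cox8b window holds 2 CpG dinucleotides and a match to the TATA box letters, which begins at base 5 after the annotated start and thus not before it. The Cox8a window holds 2 ETS matches, at −5 and 33 from the start, and 19 CpG. The Cox7a1 and Cox7a2 windows hold no match to these motifs, with 7 and 20 CpG. The Atp5k window holds NRF1 matches on both strands that overlap each other, 1 match each for the ETS and ERR families, and 19 CpG. Windows were found for 73 of the 91 members (78 windows), with a median of 19 CpG against 7 over all 32851 windows of the table. NRF1 matches occurred in 32.1% of member windows against 6.31% of all windows, ETS matches in 23.1% against 8.86%, YY1 in 12.8% against 2.75% and ERR in 10.3% against 4.72%. TATA box matches, at any place in the window, occurred in 10.3% of member windows against 13.6% of all. A match describes letters in the window and not a bound site. No window was matched for the others, among them Cox4i2, Cox6a2, Ndufa4l2, Cox4i1, Uqcrc2 and Atp5a1.

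There were 4751 barcodes with 40974634 UMIs in db/db and salt and 5676 barcodes with 44935235 UMIs in db/+. The libraries shared 7 barcode sequences. Classes were set by marker UMIs, which the members are not part of. In db/db and salt and in db/+ there were 2670 and 3220 endothelial barcodes, 1112 and 1260 fibroblast barcodes, 85 and 89 mural barcodes, 40 and 39 endocardial barcodes, and 12 and 5 barcodes with cardiomyocyte markers. Mural means pericytes and vascular smooth muscle cells, the cells that wrap vessels, and endocardial means the lining of the heart chambers. Median depth was 5462 and 5368 UMIs in endothelial, 11981.5 and 9621 in fibroblast, 5569 and 5463 in mural, 12391.5 and 7400 in endocardial and 3445 and 2588 in cardiomyocyte-marker barcodes. Levels are CPM, counts of a gene scaled by the summed UMIs of its class in a library. Ratios are log2 of CPM plus 10 in both terms, which understates the ratio of low genes. A gene is called measured in a comparison when its mean CPM is at least 10. As a share of RNA, a level cannot tell fewer transcripts of a gene from more RNA of other genes.

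Cardiomyocyte-marker barcodes held the highest member levels, mural barcodes came next, and endothelial, fibroblast and endocardial barcodes were lower and close to each other. Summed over the 91 members, the level in db/db and salt and in db/+ was 98312 and 118779 CPM in cardiomyocyte-marker barcodes, 28405 and 27576 CPM in mural, 18413 and 16087 CPM in endocardial, 18051 and 17941 CPM in endothelial, and 16785 and 15983 CPM in fibroblast barcodes. Cardiomyocyte-marker and mural barcodes kept this order in both libraries. Endocardial and endothelial barcodes changed places between the libraries, and their intervals touched in db/db and salt only (18066 to 18766 CPM in endocardial against 17993 to 18110.5 CPM in endothelial barcodes). Per barcode, members made up a median of 1.79% of UMIs in endothelial barcodes of db/db and salt (10th to 90th percentile 1.21% to 2.34%) and 1.79% in those of db/+ (1.26% to 2.31%). The median was 2.91% in mural barcodes of db/db and salt (2.10% to 3.99%) and 2.89% in those of db/+ (1.96% to 3.70%), so the 10th percentile of mural barcodes lay below the 90th of endothelial barcodes in both libraries.

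**Figure D1:**
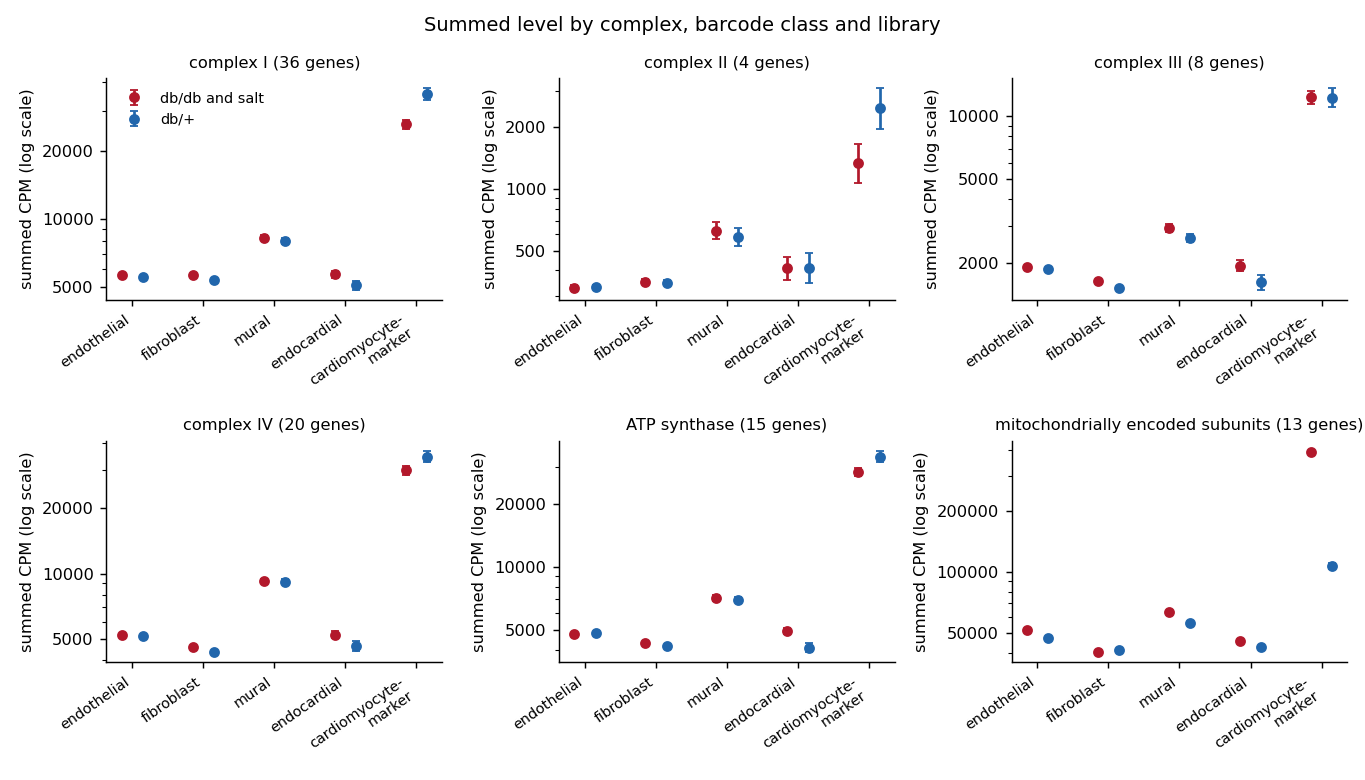
Summed level of the members of each complex (CPM, log axis) in 5 barcode classes, with db/db and salt left of db/+ and bars for exact Poisson 95% intervals. Cardiomyocyte-marker barcodes lie above all other classes in every panel and mural barcodes come second in each, as for complex IV with 9230 and 9155 CPM in mural against 5207 and 5164 CPM in endothelial barcodes.

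The order of classes was the same in each complex at the top. Complex I summed to 26140 and 35424 CPM in cardiomyocyte-marker barcodes of db/db and salt and db/+, 8272 and 7993 CPM in mural, 5690 and 5109 CPM in endocardial, 5646 and 5570.0 CPM in endothelial and 5654 and 5354 CPM in fibroblast barcodes. Complex II summed to 1333 and 2476 CPM in cardiomyocyte-marker, 625 and 584 CPM in mural, 411 and 411 CPM in endocardial, 329.8 and 331 CPM in endothelial and 352 and 349 CPM in fibroblast barcodes. Complex III summed to 12279 and 12252 CPM in cardiomyocyte-marker, 2933 and 2620.3 CPM in mural, 1929.9 and 1615 CPM in endocardial, 1897 and 1873 CPM in endothelial and 1631 and 1512 CPM in fibroblast barcodes. Fibroblast barcodes were thus lowest of the 5 classes for complex III, the cytochrome bc1 complex, in both libraries, as they were for complex IV. Complex IV summed to 29907 and 34567 CPM in cardiomyocyte-marker, 9229.7 and 9155 CPM in mural, 5230.4 and 4632 CPM in endocardial, 5207 and 5164 CPM in endothelial and 4607 and 4364 CPM in fibroblast barcodes. ATP synthase summed to 28217 and 33456 CPM in cardiomyocyte-marker, 7084 and 6956 CPM in mural, 4933 and 4106 CPM in endocardial, 4757 and 4802 CPM in endothelial and 4319.8 and 4172 CPM in fibroblast barcodes. The assembly factors, which help to build complex I and are not part of it, differed less between classes: 434 and 603 CPM in cardiomyocyte-marker, 262 and 267 CPM in mural, 219 and 215 CPM in endocardial, 215 and 202 CPM in endothelial and 222 and 231 CPM in fibroblast barcodes.

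Cardiomyocyte-marker barcodes were set against endothelial barcodes of the same library. At least 1.5-fold higher in cardiomyocyte-marker barcodes in both libraries were 77 of 84 measured members, where 11.0% of all 6823 measured genes were. Called lower was 1 member, Cox4i2 (50.8% of all genes), which had no UMI in them, but 3 UMIs among the 64499 and 31504 UMIs of the class would already exceed its endothelial level, so a difference was not detectable at this depth. Ndufc2, Cox6a1, Cox7a2l, Ndufaf2, Ndufaf3 and Cox8a were in neither group. Members summed to 2.45 log2 above endothelial barcodes in db/db and salt and to 2.73 log2 above in db/+. Without the mitochondrially encoded UMIs in the totals these differences were 3.08 and 2.82. The assembly factors were the group nearest to endothelial levels, at 1.02 and 1.58 log2. Against every other class, 72 of 85 members were at least 1.5-fold higher in cardiomyocyte-marker barcodes in both libraries, where 5.69% of all 8606 genes were.

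The muscle isoforms of complex IV led this list. Cox6a2 stood at 2558 and 3079 CPM in cardiomyocyte-marker barcodes of db/db and salt and db/+, against 7.25 and 6.44 CPM in endothelial barcodes (log2 ratios 7.22 and 7.55). Cox7a1 stood at 1612 and 1905 CPM against 4.60 and 3.79 CPM in endothelial barcodes (6.80 and 7.12). Cox8b stood at 1488 and 1143 CPM against 3.35 and 2.61 CPM (6.81 and 6.51). Other members with large ratios were Atp5g1, which encodes subunit c of the rotor ring (4.48 and 4.03), Cox7b of complex IV (3.66 and 3.49), Ndufc1 of complex I (3.18 and 3.98; named after its value was seen) and Cox5a of complex IV (3.06 and 3.42). The catalytic core followed. Atp5b, the catalytic beta subunit of ATP synthase, stood 2.34 and 3.02 log2 above endothelial barcodes, Atp5a1, the alpha subunit, 2.88 and 2.93, Ndufs1, the largest iron-sulfur subunit of complex I, 2.44 and 3.20, Ndufv1, which binds NADH, 2.36 and 3.15, Sdha, the flavoprotein of complex II, 1.82 and 2.10, and Cox4i1 2.31 and 2.05. Uqcrfs1, the Rieske iron-sulfur protein of complex III, was 3.91 above in db/db and salt and 2.79 above in db/+.

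The cardiomyocyte-marker barcodes were few and uneven, and their sums rest on a few of them. Members made up a median of 10.7% of UMIs in the 12 barcodes of db/db and salt (0.525% to 19.0%) and 10.3% in the 5 of db/+ (3.06% to 15.7%). Mitochondrially encoded genes held from 0.0% to 66.3% of UMIs in db/db and salt and from 4.72% to 26.3% in db/+, and 9 of 12 and 3 of 5 barcodes were above the 10% limit used for the other classes. Counted over UMIs of nuclear genes, the share was a median of 17.7% in db/db and salt and 14% in db/+. On this count 11 of the 12 barcodes of db/db and salt lay between 15.6% and 20.8%. The remaining barcode had 11624 UMIs, 66.3% of them mitochondrially encoded, with only 61 UMIs of members and none of Cox6a2. In db/+ 1 barcode gave 56.6% of the UMIs of its class (17837 UMIs); without the largest barcode the db/+ sum was 2.22 log2 above endothelial barcodes. A further db/+ barcode carried 87 UMIs of endothelial markers. Cox6a2 had a UMI in 11 of 12 and 5 of 5 barcodes. The class takes barcodes with at least 2% of UMIs from cardiomyocyte markers; just under it, from 1% to 2%, lay 3 barcodes of db/db and salt with 2.97% to 4.56% members and 1 of db/+ with 2.89%, and just inside, from 2% to 4%, lay 1 of db/+ with 3.06%.

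**Figure D2:**
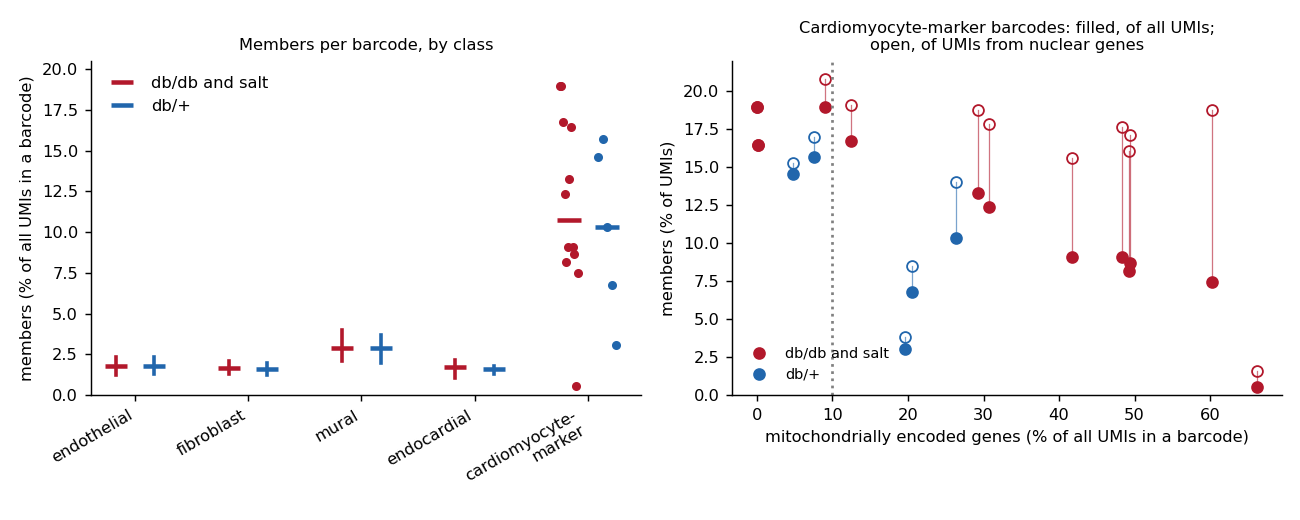
Left, members as % of all UMIs in a barcode, by class, with db/db and salt left of db/+: median (dash) and 10th to 90th percentile (line), and every barcode (points) for cardiomyocyte-marker barcodes. Right, the 12 db/db and salt and 5 db/+ cardiomyocyte-marker barcodes against their mitochondrially encoded share, with members as % of all UMIs (filled) and of nuclear-gene UMIs (open); 11 of the 12 open db/db and salt points lie between 15.6% and 20.8%.

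Mural barcodes held more member RNA than endothelial barcodes in every complex. The difference of the sums was 0.65 log2 in db/db and salt and 0.62 in db/+. It was 0.92 and 0.82 for complex II, 0.83 and 0.83 for complex IV, 0.63 and 0.48 for complex III, 0.57 and 0.53 for ATP synthase and 0.55 and 0.52 for complex I. The complex IV sum in mural barcodes holds Cox4i2, at 854 and 956 CPM, and Ndufa4l2, at 1391 and 1347 CPM. As a median over its genes, complex IV was at 0.48 and 0.39, lower than each other complex and ATP synthase. At least 1.5-fold higher in mural barcodes in both libraries were 29 of 82 measured members, against 13.5% of all 8494 measured genes. They comprised 13 genes of complex I, 1 assembly factor, 3 of complex II, 3 of complex III, 3 of complex IV and 6 of ATP synthase. The median over members was 0.54 in db/db and salt and 0.50 in db/+, beside 0.02 and 0.08 over all genes.

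Among named members, Sdhc, a membrane anchor of complex II, stood at 201 and 151 CPM in mural barcodes of db/db and salt and db/+ against 62.5 and 63.1 CPM in endothelial barcodes (log2 ratios 1.54 and 1.14). Cox8a stood at 1308 and 1465 CPM against 479.8 and 529 CPM (1.43 and 1.45), Atp5a1 at 623 and 566 CPM against 267 and 274 CPM (1.20 and 1.02) and Atp5b at 1019 and 1006 CPM against 463 and 486 CPM (1.12 and 1.03). All 4 were thus higher in mural barcodes of both libraries, each by more than 1.5-fold. Sdha, at 0.77 and 0.66, and Uqcrfs1, at 0.95 and 0.65, were also past it, whereas Uqcrc1, a core protein of complex III (0.41 and 0.44), Cox5a (0.19 and 0.26) and Cox4i1 (0.19 and 0.40) were not. Ndufa4 (−0.73 and −1.03) and Ndufa8 (−0.70 and −0.86; named after its value was seen) were the members called lower in mural barcodes, where 11.2% of all genes were. Against fibroblast barcodes, 33 of 82 members were at least 1.5-fold higher in mural barcodes in both libraries (14.2% of all genes) and 0 were lower (11.3% of all genes). Of these 33, 7 were among the 8 complex III genes.

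The mural class is not free of RNA from other cells. Endothelial markers held 4960.3 and 4445 CPM in mural barcodes of db/db and salt and db/+, against 31471 and 29425 CPM in endothelial barcodes, and fibroblast markers 1196 and 1500.1 CPM; their part in the member levels was not tested. With mural purity lowered to 50%, the summed difference from endothelial barcodes was 0.49 and 0.46, and with a purity of 90% it was 0.82 and 0.79. Pericyte-leaning barcodes (60 and 73) summed to 27058 and 26952 CPM of members and smooth muscle-leaning barcodes (25 and 16) to 30198 and 29741 CPM, so both kinds were above endothelial barcodes.

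Cox4i2 and Ndufa4l2 were highest in the mural class. Both were at least 1.5-fold above every other class in both libraries, the 2 of 86 members of which this held in mural barcodes (3.49% of all genes). It held for 0 of 86 members in endothelial (3.9% of all genes), 0 of 86 in fibroblast (5.03%) and 0 of 85 in endocardial barcodes (2.2%). Cox4i2 (chr2:152754173-152765037, +, GRCm38) encodes the alternative form of subunit IV, a regulatory subunit of the oxidase. It stood at 854 and 956 CPM in mural barcodes of db/db and salt and db/+, 33.6 and 33.3 CPM in fibroblast, 21.1 and 22.4 CPM in endothelial, 43.2 and 0 CPM in endocardial and 0 and 0 CPM in cardiomyocyte-marker barcodes. In mural barcodes it gave 48.6% (45.7% to 51.5%) and 47.9% (45.1% to 50.7%) of the UMIs of Cox4i1 and Cox4i2 together. The share was 57.8% and 52.9% in pericyte-leaning and 31.1% and 23.8% in smooth muscle-leaning barcodes. Elsewhere it was 4.74% and 4.84% in fibroblast and 2.59% and 2.77% in endothelial barcodes. The 0 UMIs in cardiomyocyte-marker barcodes, with 255 and 104 UMIs of Cox4i1, allow a share of up to 1.18% and 2.88%.

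Ndufa4l2 (chr10:127514967-127517154, +, GRCm38) encodes a relative of the complex IV subunit Ndufa4 and is known as a target of hypoxia-inducible factor. It stood at 1391 and 1347 CPM in mural barcodes of db/db and salt and db/+, 134 and 128 CPM in fibroblast, 17.9 and 14.8 CPM in endothelial, 114 and 11.5 CPM in endocardial and 0 and 0 CPM in cardiomyocyte-marker barcodes. In mural barcodes it gave 82.0% (79.6% to 84.2%) and 85.2% (82.9% to 87.4%) of the UMIs of Ndufa4 and Ndufa4l2. The share was 92.5% and 90.8% in pericyte-leaning and 60.9% and 59.4% in smooth muscle-leaning barcodes, where the intervals of the 2 kinds do not overlap in either library. In fibroblast barcodes it was 28.5% (27.4% to 29.6%) and 29.3% (28.1% to 30.5%), and in endothelial barcodes 3.37% and 2.96%.

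**Figure D3:**
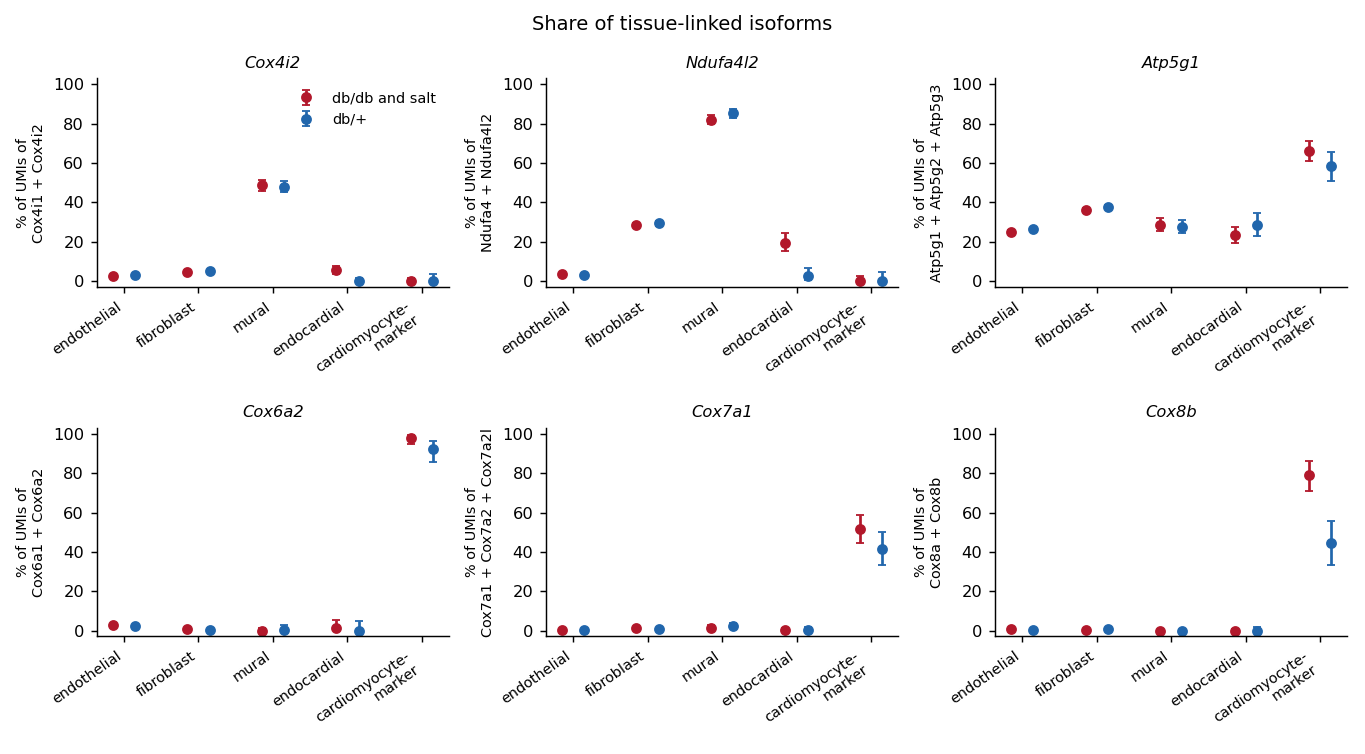
Share of 6 isoforms in the UMIs of their family (%), by barcode class, with db/db and salt left of db/+ and bars for exact binomial 95% intervals. Cox4i2 and Ndufa4l2 peak in mural barcodes (48.6% and 82.0% in db/db and salt), and Cox6a2, Cox7a1, Cox8b and Atp5g1 in cardiomyocyte-marker barcodes (98.2%, 51.7%, 79.3% and 66.2%).

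Low levels of these genes in other classes were set beside the pericyte markers there. For every 100 pericyte-marker UMIs, Cox4i2 had 4.72 and 4.67 UMIs in mural and 5.65 and 6.67 in endothelial barcodes of db/db and salt and db/+, and Ndufa4l2 7.68 and 6.58 in mural and 4.80 and 4.41 in endothelial barcodes. In endothelial barcodes both genes were thus of the order of the mural ratio. In fibroblast barcodes the ratio was 20.6 and 22.4 for Cox4i2 and 82.2 and 86.0 for Ndufa4l2, above that of mural barcodes in both libraries. An Ndufa4l2 UMI was found in 679 (61.1%) and 690 (54.8%) fibroblast barcodes, of which 201 and 224 had no pericyte-marker UMI and held 453 and 451 of the 1843 and 1600 Ndufa4l2 UMIs. With every barcode thinned to 1500 UMIs, an Ndufa4l2 UMI was found in 83.8% and 85.5% of mural, 17.7% and 17.7% of fibroblast and 1.33% and 1.16% of endothelial barcodes. A Cox4i2 UMI was found in 76.2% and 71.1% of mural, 3.63% and 4.35% of fibroblast and 2.85% and 2.79% of endothelial barcodes. Thinning left out 5 and 6 mural, 11 and 20 fibroblast and 109 and 209 endothelial barcodes.

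In cardiomyocyte-marker barcodes Cox6a2 made up nearly all Cox6a UMIs, and Cox8b and Cox7a1 shared their families with the broadly expressed forms. Cox6a2 gave 98.2% (94.9% to 99.6%) of Cox6a UMIs in db/db and salt and 92.4% (85.5% to 96.7%) in db/+. Cox8b gave 79.3% (71.0% to 86.2%) of the UMIs of Cox8a and Cox8b in db/db and salt and 44.4% (33.4% to 55.9%) in db/+. Of the 45 Cox8a UMIs in db/+, 38 came from the largest barcode. Cox7a1 gave 51.7% (44.6% to 58.8%) and 41.7% (33.5% to 50.2%) of the UMIs of Cox7a1, Cox7a2 and Cox7a2l, the last of which encodes the supercomplex factor SCAF1. Cox6b2, known from testis, gave at most 2.8% of its family in any class, and Cox8c had no UMI in any class.

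Low counts of the muscle isoforms in other classes were set beside the cardiomyocyte markers there. These markers held 112 and 124 CPM in endothelial and 22.8 and 21.2 CPM in fibroblast barcodes of db/db and salt and db/+, against 79459 and 93988 CPM in cardiomyocyte-marker barcodes. For every 100 cardiomyocyte-marker UMIs, Cox6a2 had 6.51 and 5.20 UMIs in endothelial barcodes against 3.22 and 3.28 in cardiomyocyte-marker barcodes. The ratios of Cox7a1 and Cox8b were higher than in cardiomyocyte-marker barcodes in both fibroblast and endothelial barcodes. In endothelial barcodes Cox7a1 had 4.13 and 3.06 and Cox8b 3.01 and 2.11. In mural barcodes Cox7a1 had 10.3 and 41.4, on 8 and 12 UMIs. Cox6a2 in fibroblast barcodes had 7.32 and 2.26, on 23 and 6 UMIs. Cox7a1 had 31.8 and 19.2 in fibroblast barcodes against 2.03 and 2.03 in cardiomyocyte-marker barcodes, and Cox8b 14 and 16.5 against 1.87 and 1.22. The fibroblast values rest on 100 and 51 UMIs of Cox7a1 and on 44 and 44 of Cox8b.

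The 3 genes for subunit c of ATP synthase, Atp5g1, Atp5g2 and Atp5g3, encode the same mature protein and differ in their import sequences. Atp5g1 gave 66.2% (61.2% to 71.0%) and 58.5% (51.0% to 65.7%) of their UMIs in cardiomyocyte-marker barcodes of db/db and salt and db/+. It gave 35.9% and 37.6% in fibroblast, 28.6% and 27.5% in mural and 25% and 26.5% in endothelial barcodes. Atp5g3 had its highest share in mural barcodes, at 40.8% (37.0% to 44.6%) and 42.1% (38.3% to 45.9%), against 29.2% and 25.3% in endothelial barcodes. Atp5g2 gave 45.8% and 48.2% in endothelial and 49.8% and 48.7% in endocardial barcodes. The most used gene of the 3 was thus Atp5g1 in cardiomyocyte-marker, Atp5g3 in mural, and Atp5g2 in endothelial and endocardial barcodes, in both libraries; in fibroblast barcodes the intervals of Atp5g1 (34.9% to 36.9%) and Atp5g2 (33.8% to 35.8%) overlapped in db/db and salt. Cox7a2 gave 64.1% and 64.1% of its family in mural barcodes and 51.5% and 49.2% in endothelial barcodes.

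Fibroblast barcodes were near endothelial barcodes for most members. The sums differed by −0.10 log2 in db/db and salt and −0.17 in db/+. At least 1.5-fold higher in fibroblast barcodes in both libraries were 2 of 82 measured members, against 16.7% of all 8717 measured genes: Ndufa4l2 (2.37 and 2.47) and Ndufa13, a complex I subunit (0.61 and 0.65). Lower were 4 members, against 16.3% of all genes: Ndufa8 of complex I (−1.37 and −1.39), Atp5j, a coupling factor of ATP synthase (−1.11 and −1.03), Cox5a (−0.80 and −0.78) and Ndufa4 (−0.59 and −0.64). Ndufa13, Ndufa8 and Atp5j were named after their values were seen. Ndufa8 stood at 122 and 121 CPM in fibroblast barcodes of db/db and salt and db/+, and at 331 and 335 CPM in endothelial barcodes. Atp5j stood at 345 and 356 CPM in fibroblast and 757 and 737 CPM in endothelial barcodes. The members called between these classes came from complexes I and IV and from ATP synthase. No single gene of complex III was called, but its summed level in fibroblast barcodes was −0.22 and −0.31 log2 from that in endothelial barcodes.

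**Figure D4:**
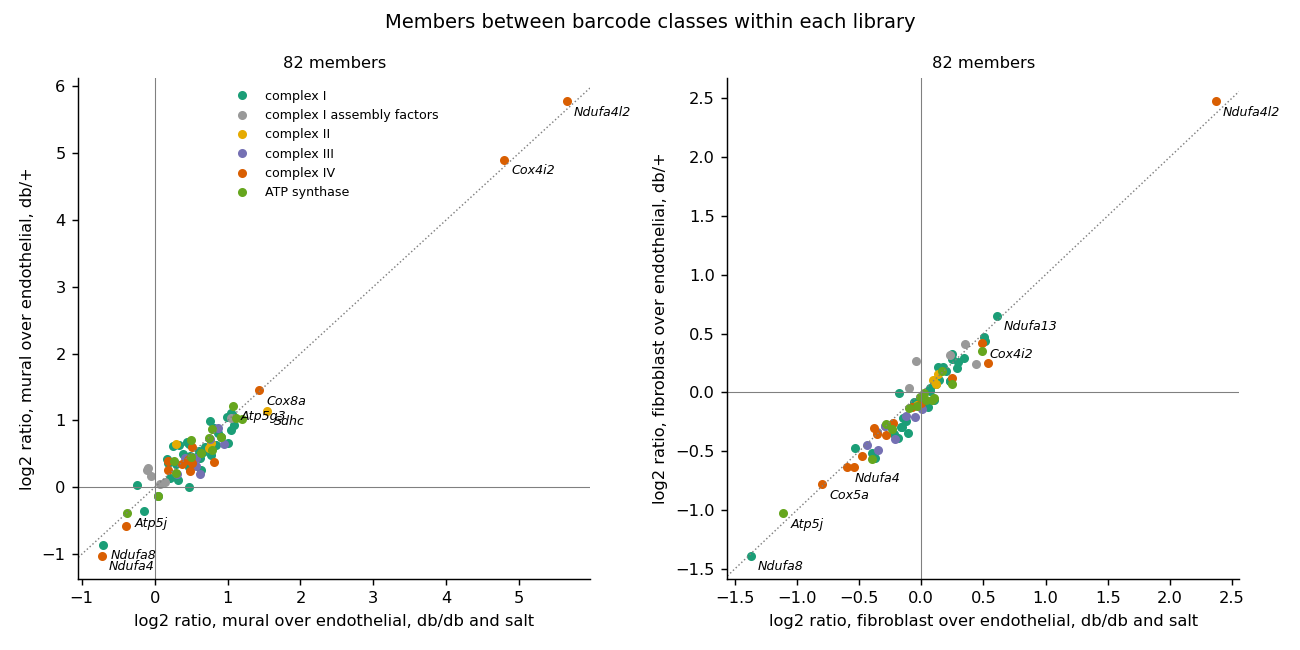
Log2 ratio of each measured member over endothelial barcodes in db/db and salt (x axis) and in db/+ (y axis), for mural barcodes (left) and fibroblast barcodes (right), coloured by complex, with a dotted line where both libraries give the same ratio. Cox4i2 and Ndufa4l2 lie apart on the left (4.80 and 4.90, 5.65 and 5.77), and Ndufa8, Atp5j, Cox5a and Ndufa4 lie low on the right.

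Endocardial barcodes stood at 0.03 log2 of summed members above endothelial barcodes in db/db and salt and at −0.16 in db/+. Called higher in both libraries were 0 of 81 members (9.1% of all genes), and 1 was lower, Ndufa8 (−0.81 and −1.11; 9.42% of all genes). Endocardial barcodes held their own markers at 3677 and 5350.0 CPM, against 27.8 and 18.9 CPM in endothelial barcodes, but also fibroblast markers at 2843 and 3442 CPM, whose part in the member levels was not tested. Ndufa4l2 in endocardial barcodes of db/db and salt came to 66 UMIs, of which 23 lay in the largest barcode (49809 UMIs), which also held all 25 Cox4i2 UMIs, 93 pericyte-marker and 130 fibroblast-marker UMIs. Without it Ndufa4l2 stood at 81.2 CPM.

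Between the libraries, members in endothelial barcodes differed little. Their median log2 ratio of db/db and salt over db/+ was 0.01, with all genes at 0.05, and 76 of 83 measured members lay within 0.2 on either side of 0. Past 1.5-fold in either direction were 0 of 83, where 0.556% of all 8272 measured genes were higher and 1.56% lower. By complex the medians were 0.01 for complex I, 0.08 for the assembly factors, −0.01 for complex II, −0.02 for complex III, 0.03 for complex IV and −0.03 for ATP synthase. TMM scaling shifted all endothelial ratios by −0.09, which moved the members' median to −0.08, so the side of 0 on which it falls depends on the scaling. Core subunits were close in level: Atp5b stood at 463 and 486 CPM in db/db and salt and db/+, Cox4i1 at 792 and 787 CPM, Sdha at 98.5 and 96.2 CPM, Sdhb, the iron-sulfur protein of complex II, at 95.9 and 96.6 CPM, Ndufs1 at 34.7 and 36.1 CPM and Uqcrc1 at 85.2 and 87.7 CPM.

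In fibroblast barcodes the median was 0.04, with all genes at 0.02, and 76 of 82 members lay within 0.2 of 0. At least 1.5-fold higher in db/db and salt was 1 of 82, Atp5k (0.598% of all 8689 genes), and 0 were lower (0.99% of all genes). Atp5k was not past 1.5-fold there with a pseudocount of 50 CPM (0.47), TMM (0.57), median-of-ratios size factors (0.56), at most 5% mitochondrial UMIs (0.55), Scrublet-marked barcodes kept (0.58) or 90% purity (0.58). In mural barcodes the median was 0.06, with all genes at −0.01, and 0 of 84 members were past 1.5-fold, where 5.83% of all genes were higher and 6.09% lower. Past 1.5-fold in either direction were 9 of 83 mural members with at most 5% mitochondrial UMIs (35.3% of all genes), 12 of 85 at 90% purity (39.2% of all genes) and 10 of 83 thinned to 1500 UMIs (39.6% of all genes), where the median was −0.02. In endocardial barcodes the median was 0.13, with all genes at 0.04. There 7 of 82 members were higher in db/db and salt (12.4% of all genes) and 1 lower (8.4% of all genes). The lower member was the complex I assembly factor Ndufaf1 (−0.84). It was also called lower in cardiomyocyte-marker barcodes, but stood at 0.47 in mural and 0.08 in endothelial barcodes. Without the largest endocardial barcode of each library, which in db/db and salt held 49809 UMIs, the median was 0.05 and 4 members were past 1.5-fold.

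Cardiomyocyte-marker barcodes of db/db and salt had a median of −0.32 over 84 members, with all genes at −0.90. Higher in db/db and salt were 4 members (16.1% of all 5641 genes) and lower 30 (65.4% of all genes). These ratios are shares of totals in which mitochondrially encoded genes took 39.1% of UMIs in db/db and salt and 10.7% in db/+. Other scalings moved them upward by 0.60 (TMM) and 1.03 (median of ratios), with all genes then at −0.37 and 0.0. Both shifts exceed the members' median in size, so the side of 0 on which it falls depends on the scaling. The calls were not repeated under these scalings. Complex II had the lowest median of the complexes there, −0.96, with Sdhd, a membrane anchor, on 9 UMIs in db/db and salt and 16 in db/+. Complex III was at −0.05, with 95 UMIs of Uqcrfs1 in db/db and salt and 22 in db/+.

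Atp5k and Ndufa3 stood apart from the other members. Atp5k (chr5:108433244-108434448, −, GRCm38) encodes subunit e of ATP synthase, which helps the enzyme to form dimers. It stood at 178 CPM in endothelial barcodes of db/db and salt (3555 UMIs) and 121 CPM in those of db/+ (2977 UMIs), a log2 ratio of 0.52 with a counting interval of the plain ratio of 0.48 to 0.62. In fibroblast barcodes it stood at 173 and 112 CPM (0.59, interval 0.54 to 0.73). In mural barcodes it stood at 313 and 232 CPM (0.42, interval 0.12 to 0.75) and in endocardial barcodes at 157 and 97.7 CPM (0.63). In all 4 classes Atp5k was thus higher in db/db and salt, but with at most 5% mitochondrial UMIs the mural ratio was −0.08, with barcodes thinned to 1500 UMIs the endocardial ratio was −0.03, and the ratio passed 1.5-fold in fibroblast and endocardial barcodes only, in fibroblast barcodes not under 6 of the alternatives.

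Ndufa3, an accessory subunit of complex I, stood at 163 and 125 CPM in endothelial barcodes of db/db and salt and db/+ (0.36, interval 0.32 to 0.46) and at 122 and 84.4 CPM in fibroblast barcodes (0.48, interval 0.42 to 0.64). In mural barcodes it stood at 136 and 129 CPM, with an interval of −0.37 to 0.53 on 91 and 80 UMIs, so a difference was not detectable at this depth. Uqcr11, a small subunit of complex III, stood at 273 and 235 CPM in endothelial barcodes (0.21) and 211 and 184 CPM in fibroblast barcodes (0.19). Cox6c, a complex IV subunit, stood at 621 and 578 CPM in endothelial (0.10) and 621 and 541 CPM in fibroblast barcodes (0.19). Atp5k, Ndufa3, Uqcr11 and Cox6c were thus higher in db/db and salt in both classes. On the other side, Atp5g1 stood at 164 and 199 CPM in endothelial barcodes (−0.26, interval −0.34 to −0.21) and at 234 and 257 CPM in fibroblast barcodes (−0.13, interval −0.20 to −0.06). Atp5g2 stood at 302 and 362 CPM in endothelial (−0.26) and 227 and 242 CPM in fibroblast barcodes (−0.09). Ndufa12, a complex I subunit, stood at 113 and 131 CPM in endothelial (−0.20) and 104 and 101 CPM in fibroblast barcodes (0.03), and Cox7b at 182 and 206 CPM in endothelial (−0.17) and 269 and 247 CPM in fibroblast barcodes (0.11). For these pairs no test of a difference between the classes was possible.

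The remaining members at the ends of their groups were the following. Among assembly factors, Ndufaf2 was highest in endothelial barcodes at 44.1 and 35.8 CPM (0.24) and Ndufaf4 lowest at 27.5 and 29.5 CPM (−0.08). In fibroblast barcodes Ndufaf7 was highest (0.17) and Ndufaf8 lowest (−0.17), both with under 70 CPM in each library. In complex II all 4 genes lay between −0.03 and 0.03 in endothelial barcodes. Uqcrc2, a core protein of complex III, was its lowest member in endothelial barcodes (−0.14) and Uqcr10, a small subunit, its highest in fibroblast barcodes (0.22). Ndufb9 and Uqcrh had the highest mean level over the classes in complexes I and III. Ndufb9 was at 0.04 in endothelial and 0.05 in fibroblast barcodes, and Uqcrh at −0.08 and 0.08.

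**Figure D5:**
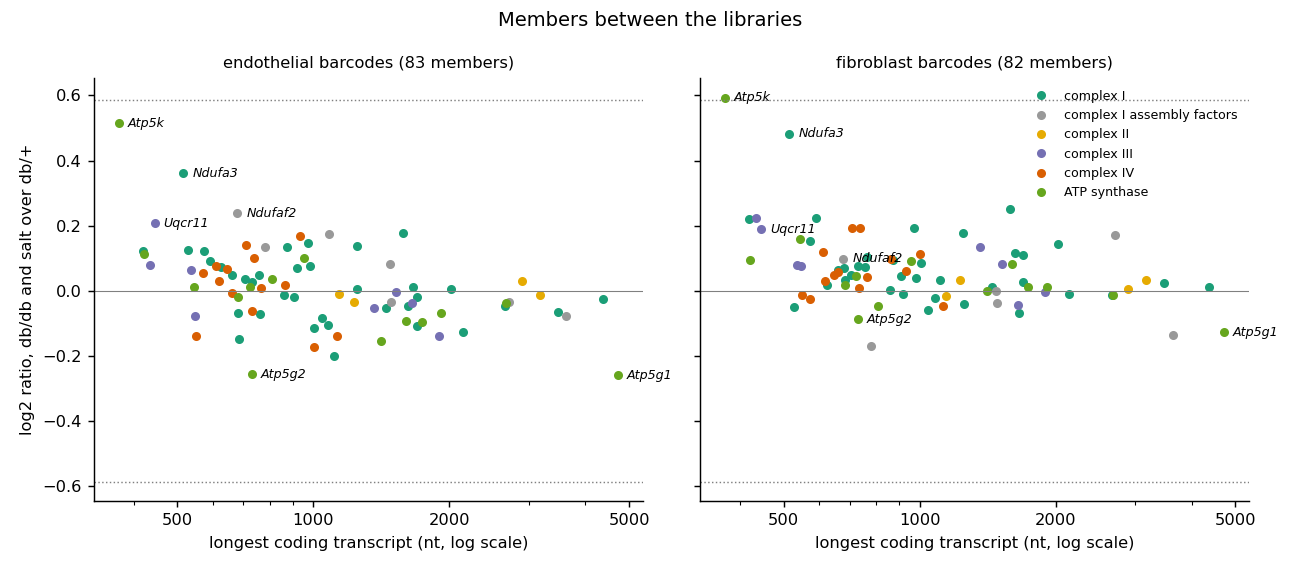
Log2 ratio of db/db and salt over db/+ for each measured member (y axis) against the length of its longest coding transcript (nt, log x axis), in endothelial barcodes (left) and fibroblast barcodes (right), coloured by complex. Atp5k and Ndufa3 are the highest points in both panels (0.52 and 0.36, 0.59 and 0.48), and Atp5g1 and Atp5g2 the lowest in endothelial barcodes (both −0.26).

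The 13 subunits encoded in the mitochondrial genome belong to the same complexes and were counted apart from the members. In endothelial barcodes their median log2 ratio of db/db and salt over db/+ was 0.14, and 12 of 13 were above 0 (64.8% of all genes). The largest ratios were those of mt-Nd4l, at 383 and 239 CPM (0.66), and mt-Atp8, at 144 and 87.9 CPM (0.65). mt-Co1, the catalytic subunit of complex IV, stood at 8520 and 6768 CPM (0.33), and mt-Nd3 was at −0.03. In fibroblast barcodes the median was −0.05 and 5 of 13 were above 0 (57.3% of all genes). There mt-Atp8 stood at 165 and 110.4 CPM (0.54), mt-Nd4l at 375 and 273 CPM (0.44) and the lowest, mt-Nd3, at 519 and 681 CPM (−0.39). Members per mitochondrially encoded UMI came to 0.349 in endothelial barcodes of db/db and salt and 0.379 in those of db/+, 0.417 and 0.385 in fibroblast, 0.445 and 0.493 in mural, 0.402 and 0.377 in endocardial, and 0.252 and 1.11 in cardiomyocyte-marker barcodes. The 2 libraries thus differed in opposite directions in endothelial and fibroblast barcodes, each beyond counting error (0.348 to 0.350 against 0.378 to 0.380 in endothelial, 0.415 to 0.419 against 0.383 to 0.387 in fibroblast barcodes), and no test of that difference was possible. The limit on mitochondrial UMIs sets this quantity in part: with at most 5% it was 0.497 and 0.505 in endothelial barcodes.

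Other mitochondrial genes were set beside the members from fixed lists. The citric acid cycle makes NADH and succinate that complexes I and II use. Its list of 16 genes also held Pdha1, Pdhb and Dlat of the pyruvate dehydrogenase complex. The median of the list between the libraries was 0.01 in endothelial and 0.03 in fibroblast barcodes. Past 1.5-fold in either direction were 0 in either class, where only 2.12% of all genes in endothelial and 1.59% in fibroblast barcodes were. Between classes, 10 of the 16 were at least 1.5-fold higher in mural than in endothelial barcodes in both libraries (13.5% of all genes), with summed levels 0.86 and 0.82 log2 higher. A list of electron and metabolite carriers, which holds cytochrome c, cytochrome c1, electron transfer flavoprotein genes, phosphate and nucleotide carriers, outer membrane channels, Ucp2, Ckmt2 and Atpif1, had a median between the libraries of −0.09 in endothelial barcodes, where 1 of 13 was above 0 (64.8% of all genes). In fibroblast barcodes it was close to 0, with 5 of 12 above it (57.3% of all genes). Mural barcodes were 0.97 and 0.78 log2 above endothelial barcodes in summed carriers, with 7 of 13 called higher (13.5% of all genes) and 1 lower (11.2% of all genes). Factors that assemble the complexes, beyond those of complex I named Ndufaf, had a median of 0.05 in both classes between the libraries. Of these, 0 of 23 were past 1.5-fold in each class (2.12% of all genes in endothelial and 1.59% in fibroblast barcodes). Called higher in mural than in endothelial barcodes was 1 of 23 (13.5% of all genes). A list of cytosolic ribosomal proteins was taken by symbol as a set of short and abundant transcripts, and holds some pseudogene entries. Its median between the libraries was −0.23 in endothelial and −0.04 in fibroblast barcodes. The summed level of this list in mural barcodes was below that in endothelial barcodes, by −0.35 log2 in db/db and salt and −0.55 in db/+.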

How the data were processed

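The deposited matrices hold whole UMI counts of each gene in each barcode, without normalization, and came from Cell Ranger 6.0.2, per the file headers. The genome was GRCm38 (mm10) and Seurat is also listed, per the submitters' processing notes; no annotation release is stated in the sources used here. Levels of members with near-identical processed pseudogenes are uncertain where reads match both.

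Barcodes with at least 500 genes and at most 10% mitochondrially encoded UMIs were kept (no mitochondrial limit for cardiomyocyte-marker barcodes). Scrublet in scanpy 1.11.5 marked 50 of 4144 barcodes (1.21%) in db/db and salt and 64 of 4948 (1.29%) in db/+, which were removed. Over the limit were 544 and 609 barcodes, and 165 and 289 had under 500 genes. Endothelial, fibroblast and mural classes needed 10 marker UMIs from 3 markers and 70% of the endothelial, fibroblast and mural marker UMIs together. The endocardial class needed 10 endocardial-marker UMIs from 3 markers, 10 endothelial-marker UMIs, and 50% of that total from endothelial markers. Barcodes with lymphatic (10 UMIs from 4 markers) or leukocyte markers (10 UMIs from 3), or over 5% erythroid UMIs, were left out of these classes. The cardiomyocyte class needed 2% of UMIs from 5 or more of 11 markers. Of the other barcodes kept, 141 and 222 had no class. Ratios used a pseudocount of 10 CPM; a call is a size of 1.5-fold among genes with a mean of 10 CPM or more, not a test. Intervals are exact Poisson or Clopper-Pearson. Transcript lengths are from GENCODE M21. The calls and intervals were run on counts simulated with Poisson error only. That simulation held no spread between animals or libraries, so it cannot speak to differences between the groups. The ribosomal protein list was taken by symbol and leaves out the Rps6k kinases. It still holds Rps19bp1, which is not a ribosomal protein, and pseudogene entries such as Rpl27-ps3 and Rpl10-ps3. The tools were Python 3.11.15, numpy 2.4.6, scipy 1.17.1, pandas 2.3.3, matplotlib 3.10.9, R 4.3.3 and edgeR 4.0.16 (TMM factors only). Members and lists were chosen with earlier results of these data known. Named genes are the tissue isoforms, a catalytic core, the highest level and the highest and lowest library ratio of each complex, members above every other class, and members past 1.5-fold in 2 classes.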

Additional observations from a re-analysis of the deposited data

How the results depend on the processing

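No paired analysis was possible because each group is 1 library. Summed class differences kept their direction under the alternatives that could be run, except endocardial over endothelial barcodes in db/db and salt (−0.08 to 0.08). Values given as a pair are db/db and salt, then db/+. Mural over endothelial sums, in log2, were 0.50 and 0.41 with TMM, 0.51 and 0.42 with median-of-ratios size factors, 0.59 and 0.56 with at most 5% mitochondrial UMIs, 0.84 and 0.78 with at most 20%, 0.83 and 0.77 with no limit, 0.82 and 0.79 at 90% purity, 0.49 and 0.46 at 50% mural purity and 0.71 and 0.75 with barcodes thinned to 1500 UMIs. Cardiomyocyte-marker over endothelial sums were 2.63 and 2.30 with TMM, 2.77 and 2.38 with median-of-ratios size factors, 3.08 and 2.82 without mitochondrially encoded UMIs in the totals, 3.23 and 2.99 with the 5% limit, 3.30 and 2.95 with 20%, 2.72 and 2.50 thinned, 2.07 and 2.43 with a marker share of 1%, and 3.30 and 3.04 with the 10% mitochondrial limit. In db/+ they were 3.01 with a marker share of 5% and 2.22 without the largest barcode.

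Cox4i2 gave, of its family in mural barcodes, 66.1% and 52.2% with the 5% limit, 39.7% and 40.3% with 20%, 38.8% and 39.6% with no limit, 56.7% and 54.0% at 90% purity, 43.5% and 44.1% at 50% and 54.4% and 53.4% thinned. Ndufa4l2 gave 96.9% with the 5% limit in db/db and salt, 72.5% and 72.5% with 20%, 71.8% and 71.2% with no limit, 84.5% and 90.6% at 90% purity, 76.5% and 77.9% at 50% and 92.7% and 89.4% thinned. Cox6a2 gave 94.4% and 85.0% in cardiomyocyte-marker barcodes thinned. Members per mitochondrially encoded UMI in endothelial barcodes were 0.497 and 0.505 with the 5% limit, 0.316 and 0.353 with 20%, 0.313 and 0.344 with no limit, and 0.340 and 0.362 thinned.

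Medians between the libraries moved to −0.079 (TMM) and −0.080 (median of ratios) in endothelial, 0.015 and 0.014 in fibroblast, −0.024 thinned in mural, and 0.025 thinned and 0.051 without the largest barcode in endocardial barcodes. Members past 1.5-fold between the libraries in fibroblast barcodes were 0 with a pseudocount of 50 CPM, TMM, median of ratios, the 5% limit, Scrublet-marked barcodes kept and 90% purity. In mural barcodes they were 2 with a pseudocount of 1 CPM, 9 with the 5% limit, 12 at 90% purity and 10 thinned (22.3%, 35.3%, 39.2% and 39.6% of all genes). In endocardial barcodes they were 3 with a pseudocount of 50 CPM, 5 with median of ratios, 35 at 90% purity, 33 thinned and 4 without the largest barcode (3.44%, 20.3%, 51.1%, 56.3% and 21.8% of all genes). Among the main results 89 values moved beyond the interval of the main setting (counts by more than 1.5-fold) and 117 did not. These are medians and counts between the libraries, mural and cardiomyocyte-marker sums and isoform shares, and endothelial members per mitochondrially encoded UMI. For single genes and other results 266 values moved beyond their counting interval and 2003 did not. Of 76 values of genes past 1.5-fold, 1, the thinned endocardial Atp5k, changed sign (−0.034), and over all named genes 163 of 2034 ratios fell on the other side of 0. The causes were not tested. Limits on cardiomyocyte-marker and endocardial barcodes, 50% mural purity and leaving out the largest barcodes were chosen after seeing the data. Low totals limit the precision of mural, endocardial and cardiomyocyte-marker values.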

Other observations

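In endothelial and fibroblast barcodes, members with short transcripts had the higher ratios of db/db and salt over db/+. Over 83 members in endothelial barcodes the Spearman correlation of the ratio with the length of the longest coding transcript was −0.475, and over 82 members in fibroblast barcodes −0.372, as a description across genes of the same libraries. In mural barcodes it was −0.07 and in endocardial barcodes −0.26. Atp5k has a longest transcript of 371 nt, Uqcr11 445 nt and Ndufa3 515 nt. The 5 members of at most 500 nt had a median ratio of 0.12 in endothelial and 0.22 in fibroblast barcodes, against −0.01 and 0.03 for longer members. The list of cytosolic ribosomal proteins gave −0.371 over 86 genes in endothelial and −0.384 over 85 in fibroblast barcodes. In mural and endocardial barcodes this list gave −0.434 and −0.292. In endothelial and fibroblast barcodes Rps29 (390 nt) was at 0.52 and 0.60 and Rps2 (1094 nt) at −0.84 and −0.66. Other genes went against the trend: Rpl35 (946 nt) was the highest, at 0.71 and 0.90, and Rps27rt (374 nt) was at −0.46 and −0.28. Over all 8175 genes with a length the correlation in endothelial barcodes was 0.306, over 8607 in fibroblast barcodes 0.091, over 8856 in mural barcodes 0.039 and over 8556 in endocardial barcodes −0.082. The longest coding transcript of a gene need not be the form present in these cells. What links length and ratio was not tested.

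Atp5o has a pair of entries in the gene list. In 1 of them no UMI was counted in any class, and the other stood at 201 and 220.0 CPM in endothelial barcodes of db/db and salt and db/+, 214 and 226 CPM in fibroblast, 285 and 354 CPM in mural, 178 and 147 CPM in endocardial and 1535 and 2222 CPM in cardiomyocyte-marker barcodes. Barcodes with the cardiomyocyte marker share but under 500 genes numbered 3 in db/db and salt, with 5.84% to 17.4% of UMIs from members, and 4 in db/+, with 4.86% to 16.4%.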
